A study of Homo sapiens with 12 samples.

Results

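Double-stranded RNA sensors and adaptors are the proteins through which a cell notices long or viral double-stranded RNA in its own cytoplasm or endosomes. The 10 genes described here were taken by their symbols in the deposited tables: IFIH1, DDX58, DHX58, DDX60, TLR3, EIF2AK2, ADAR, MAVS, TBK1 and IRF3. They are 10 of 22650 symbols found in any library, and 9 of them were among the 13340 genes tested. TLR3 was too low to be tested. The study sequenced RNA of Panc1 and MiaPaCa2, established human lines from pancreatic ductal adenocarcinoma, to compare cells without and with ASAP2. ASAP2 switches off Arf GTPases, which steer membrane traffic. The groups were Panc1 ASAP2 knockout, Panc1 wild-type, MiaPaCa2 ASAP2 knockout and MiaPaCa2 wild-type, with 3 libraries each and no other treatment on the labels. The sources used here do not give how the knockout was made, how many clones a group holds or whether its 3 libraries are separate cultures. The p-values therefore reflect the spread among these libraries alone, which may be technical.

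The cytoplasmic helicases come first in this pathway. MDA5 (gene IFIH1) binds long double-stranded RNA and RIG-I (gene DDX58) binds short ends with a triphosphate. Both then switch on MAVS, an adaptor on the mitochondrial surface, which leads to the kinase TBK1, to phosphorylation of the transcription factor IRF3 and to transcription of interferon genes. LGP2 (gene DHX58) binds the same RNA but lacks the signalling domains, and DDX60 is a related helicase induced by interferon. TLR3 senses double-stranded RNA in endosomes and signals through the adaptor TRIF. PKR (gene EIF2AK2) stops translation by phosphorylating the initiation factor eIF2, and ADAR converts adenosine to inosine in the cell's own double-stranded RNA, which keeps that RNA from activating MDA5 and PKR. Interferon induces the helicase genes in turn, largely through promoter elements called interferon-stimulated response elements (ISRE).

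The promoters of 8 of the 10 genes were matched in the RefSeq promoter table, which is on build GRCh38.p14 and gives the 250 bases before and the 50 bases from each annotated start. ADAR had 3 such windows and the other 7 genes had 1 each. DHX58 and IRF3 had none in the table. Each window was found exactly once in GRCh37, the build of the authors' files (hg19). The windows were searched on both strands for GAAA followed by any 2 bases and GAAA again, the core of an ISRE, and for TTCNNNGAA, the gamma-activated site (GAS), which reads the same on both strands. An ISRE core stood in 3.57% of all 35116 windows of the table and a GAS in 7.66%. Among the 8 genes an ISRE core stood in the windows of IFIH1, DDX60, TLR3 and EIF2AK2, and a GAS in those of DDX60 and TLR3. The windows of DDX58, ADAR, MAVS and TBK1 held neither, which says only that these letters were not in these stretches. The windows of 3 helicase genes are shown because these genes changed most of the 10 in MiaPaCa2, and because DDX58, which fell with IFIH1 and DDX60, had no match while they had. That of EIF2AK2 is shown beside them because it also holds a core, although this gene changed far less. Each is written 5′ to 3′ on the gene's own strand, with the ISRE cores in capitals.
IFIH1, chr2:163175145-163175444, reverse strand: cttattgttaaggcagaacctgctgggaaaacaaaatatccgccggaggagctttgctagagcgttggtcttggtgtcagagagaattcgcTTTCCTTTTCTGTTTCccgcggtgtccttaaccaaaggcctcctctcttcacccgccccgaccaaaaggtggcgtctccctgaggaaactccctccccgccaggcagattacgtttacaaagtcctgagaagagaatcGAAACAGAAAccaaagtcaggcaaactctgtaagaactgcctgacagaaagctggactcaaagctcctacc
DDX60, chr4:169239854-169240153, reverse strand: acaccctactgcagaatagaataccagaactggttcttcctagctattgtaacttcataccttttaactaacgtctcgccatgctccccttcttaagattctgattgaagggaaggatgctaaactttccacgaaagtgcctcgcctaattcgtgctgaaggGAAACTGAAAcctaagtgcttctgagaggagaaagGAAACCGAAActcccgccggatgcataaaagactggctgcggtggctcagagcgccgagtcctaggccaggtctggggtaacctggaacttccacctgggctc
EIF2AK2, chr2:37384074-37384373, reverse strand: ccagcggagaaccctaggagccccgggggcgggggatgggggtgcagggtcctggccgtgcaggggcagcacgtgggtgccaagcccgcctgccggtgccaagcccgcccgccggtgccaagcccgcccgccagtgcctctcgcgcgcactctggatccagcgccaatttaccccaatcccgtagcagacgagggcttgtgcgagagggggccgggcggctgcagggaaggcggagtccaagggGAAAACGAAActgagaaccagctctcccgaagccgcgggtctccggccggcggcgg
DDX58, chr9:32526145-32526444, reverse strand: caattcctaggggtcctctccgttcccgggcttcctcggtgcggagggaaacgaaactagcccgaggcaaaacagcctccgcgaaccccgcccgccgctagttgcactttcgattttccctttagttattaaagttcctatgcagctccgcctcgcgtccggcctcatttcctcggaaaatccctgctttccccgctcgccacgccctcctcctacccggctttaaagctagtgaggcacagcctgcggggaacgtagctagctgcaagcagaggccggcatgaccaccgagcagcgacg
IFIH1 held 3 cores, with the annotated start counted as base 0. A pair that overlap lay at -159 to -150 and at -153 to -144, both on the strand opposite to the gene, which is why the capitals there read as the reverse complement. The third core of IFIH1 lay at -21 to -12 on the gene's strand. DDX60 held cores at -88 to -79 and at -53 to -44, both on the gene's strand, and a GAS at -124 to -116. The core of EIF2AK2 lay across the start, at -6 to 3. That of TLR3 did so too, at -4 to 5 on the opposite strand, with a GAS at -178 to -170 and another at -50 to -42. A match is a description of the sequence and not a site shown to be bound.

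**Figure D1:**
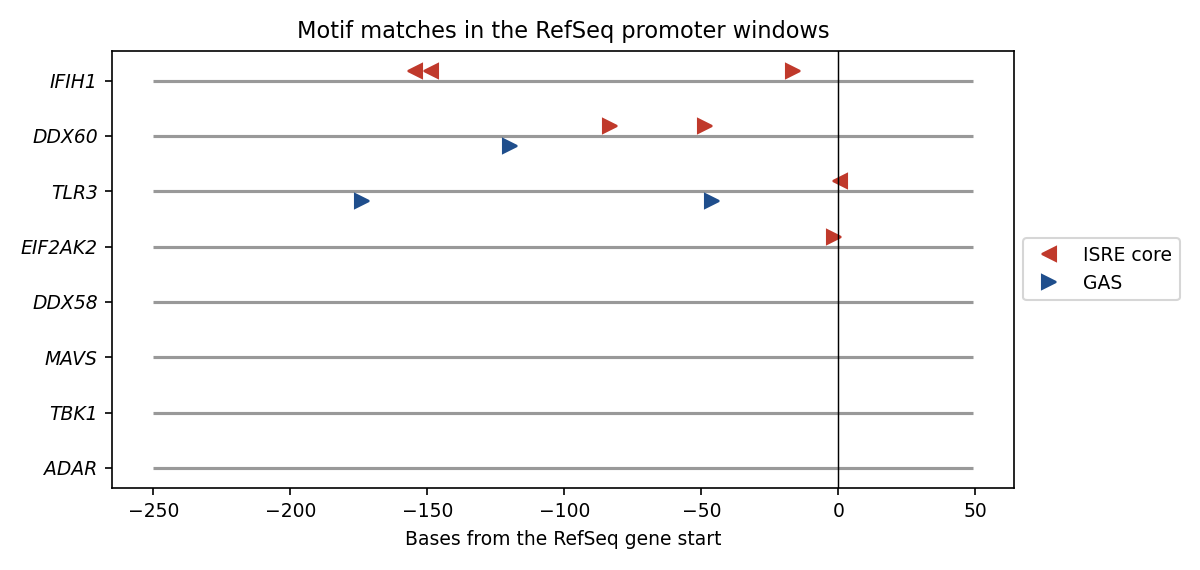
Positions of ISRE cores and GAS matches (arrows, pointing right for a match on the gene's strand and left for the opposite strand; a GAS reads the same on both) in the promoter windows of the 8 genes with a window, as distance from the annotated start in bases. IFIH1 holds 3 ISRE cores, DDX60 2, and TLR3 and EIF2AK2 1 each, while the windows of DDX58, ADAR, MAVS and TBK1 hold no match.

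Levels are FPKM as deposited, which scales the fragments of a gene by its transcript length and by the size of the library. The files list between 17958 and 19105 genes per library, and the FPKM of a library sum to between 360765 and 392610. Read depth is unknown, as the values could not be turned back into reads. Libraries of 1 group correlated at r of 0.9962 to 0.998 across all symbols on log2(FPKM + 1), knockout with wild-type libraries within a line at 0.9839 to 0.994, and libraries of different lines at 0.8986 to 0.9113. The ASAP2 mRNA stood at 14.2, 14.5 and 12.7 FPKM in Panc1 knockout libraries, against 38.6, 37.5 and 34.6 FPKM in Panc1 wild-type libraries (log2 change -1.36, limma with Benjamini-Hochberg adjustment, adjusted p = 1.5e-08). It stood at 12.01, 13.8 and 11.3 FPKM in MiaPaCa2 knockout libraries, against 13.2, 13.6 and 13.8 FPKM in MiaPaCa2 wild-type libraries (log2 change -0.13, adjusted p = 0.197). The level of ASAP2 therefore does not check the labels of the MiaPaCa2 libraries. Without knockout replicate 2 the difference in MiaPaCa2 was -0.20 (adjusted p = 0.0315). Of 6 markers of simple epithelium, the keratins KRT8 (368 to 656 FPKM), KRT18 (302 to 503 FPKM) and KRT19 (31.8 to 543 FPKM) were high in all 12 libraries, and the others were low or missing in MiaPaCa2. KRT7 stood at 2.20 to 3.45 FPKM in Panc1 and 0.01 to 0.081 FPKM in MiaPaCa2, EPCAM at 2.29 to 3.97 FPKM in Panc1 and in no library of MiaPaCa2, and CDH1 at most at 0.419 FPKM in Panc1 and 0.02 FPKM in MiaPaCa2. Of 6 leukocyte markers in the files, PTPRC reached at most 0.009 FPKM, while CD68, a lysosomal protein that cells other than leukocytes also make, stood at 160.5 to 177 FPKM in Panc1 and 18.1 to 28.4 FPKM in MiaPaCa2. Of 3 fibroblast markers in the files, THY1 stood at 15.6 to 17.3 FPKM in Panc1 knockout and 5.70 to 6.52 FPKM in Panc1 wild-type libraries. The others were low in Panc1, with LUM at most at 0.022 FPKM and PDGFRB at most at 0.83 FPKM. The part of THY1 in the Panc1 results was not tested.

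Fold changes and tests are on log2(FPKM + 1). Low genes change less on this scale than in FPKM, so ratios of the FPKM means are given as well where genes are low. Each test is limma over all 13340 tested genes with Benjamini-Hochberg adjustment, and called means an adjusted p below 0.05. In bulk RNA, fewer cells that express a gene and less RNA per cell cannot be told apart.

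In MiaPaCa2 the helicases were lower in knockout libraries, by far more than the kinases and adaptors further along the pathway. Of the 9 tested genes, 7 were called lower and 0 higher, where 16.3% of all tested genes were called lower and 17.8% higher. IFIH1, among the 7, was tested only through its level in MiaPaCa2 wild-type libraries, so its place in this count is a description. At an unadjusted p below 0.05 limma had 7 lower and 1 higher, MAVS. The median change of the 9 genes was -0.31, and that of all tested genes was 0.01. The summed level of the 4 helicases was 5.74, 5.63 and 5.46 FPKM in knockout libraries, against 25.6, 26.2 and 28.99 FPKM in wild-type libraries.

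IFIH1 had 0.57, 0.626 and 0.68 FPKM in MiaPaCa2 knockout libraries, against 7.46, 7.32 and 7.80 FPKM in wild-type libraries. All 3 knockout values lay far below every wild-type value, and the knockout mean was 8.31% of the wild-type mean. IFIH1 passed the filter on low values only through the MiaPaCa2 wild-type libraries, where it is high. The test of its change in this line is therefore a description. Its log2 change was -2.39 (SE 0.05, adjusted p = 7.3e-11), the 8th lowest of the 13340 genes. IFIH1 is protein coding and sits on the reverse strand of chromosome 2, at 163123584 to 163175194 in GRCh37, the build of all positions given here apart from the RefSeq table.

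DDX58, which newer annotation names RIGI, had 2.63, 2.05 and 2.06 FPKM in MiaPaCa2 knockout libraries, against 9.95, 10.4 and 11.9 FPKM in wild-type libraries. The groups were well apart and the knockout mean was 20.9% of the wild-type mean. Its log2 change was -1.86 (SE 0.09, adjusted p = 4.4e-08), the 21st lowest of the 13340. It lies on chromosome 9, 32455300 to 32526206, on the reverse strand. Its exons overlap those of an annotated gene without a symbol on the same strand, and how shared reads were counted is not known.

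DDX60 had 0.461, 0.474 and 0.304 FPKM in MiaPaCa2 knockout libraries, against 2.77, 2.95 and 3.31 FPKM in wild-type libraries. The knockout mean was 13.7% of the wild-type mean and no values overlapped. The log2 change was -1.50 (SE 0.08, adjusted p = 8.7e-08), the 27th lowest. DDX60 lies on chromosome 4, 169137442 to 169240034, next to its paralog DDX60L at 169277886 to 169458937. The sources used here do not say how reads that map to both were counted, so the levels of either gene are uncertain. DHX58 had 2.08, 2.48 and 2.42 FPKM in MiaPaCa2 knockout libraries, against 5.37, 5.51 and 6.02 FPKM in wild-type libraries. Of the 4 helicases it kept the largest share of its level, with a knockout mean of 41.3% of the wild-type mean (log2 change -0.996, SE 0.07, adjusted p = 6.0e-07). Even so it was the 50th lowest change of the 13340. It lies on chromosome 17, 40253422 to 40264732.

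TLR3, the endosomal sensor on chromosome 4 at 186990065 to 187009227, was near 0 in all 4 groups. It had 0.107, 0.152 and 0.142 FPKM in MiaPaCa2 knockout libraries, against 0.06, 0.201 and 0.318 FPKM in wild-type libraries. The wild-type values lay on both sides of the knockout values. In Panc1 it was listed in 1 of 3 knockout libraries at 0.008 FPKM and in 2 of 3 wild-type libraries at 0.03 and 0.015 FPKM. No fold change with knockout is given for it, since it did not pass the filter on low values.

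PKR and ADAR, which are neither among the helicases nor part of the relay from MAVS, were lower by less. EIF2AK2, the PKR gene, had 15.1, 15.6 and 14.7 FPKM in MiaPaCa2 knockout libraries, against 19.9, 18.002 and 18.4 FPKM in wild-type libraries. The groups did not overlap, and its log2 change was -0.29 (SE 0.05, adjusted p = 4.2e-04). This gene lies on the short arm of chromosome 2, 37326353 to 37384665, where the other tested genes were lower as well: the 94 within 10 Mb had a median log2 change of -0.26, and 85.1% of them lay below the median of all genes. EIF2AK2 differed from that neighbourhood median by -0.03, and 39 of the 94 neighbours changed by as much or more downward. The part of the chromosomal neighbourhood in the change of EIF2AK2 was not tested. Its exons overlap those of GPATCH11 on the other strand, which stood at 2.57 FPKM in knockout and 3.95 FPKM in wild-type libraries of MiaPaCa2, and their reads cannot be told apart, as the sources used here do not say whether counting used strand.

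ADAR had 47.5, 46.3 and 48.3 FPKM in MiaPaCa2 knockout libraries, against 49.8, 52.3 and 52.4 FPKM in wild-type libraries. The values did not overlap but lay close together, with a log2 change of -0.12 (SE 0.04, adjusted p = 0.0308). The call was lost with quantile normalization (-0.06, adjusted p = 0.21), without the mean-variance trend (adjusted p = 0.0534), with only the groups of the comparison in the fit (adjusted p = 0.0536) and without any 1 of 4 MiaPaCa2 libraries: wild-type replicate 2 (adjusted p = 0.101), wild-type replicate 3 (adjusted p = 0.107), knockout replicate 1 (adjusted p = 0.0690) or knockout replicate 2 (adjusted p = 0.0713). ADAR was the most abundant of the 10 mRNAs in all 4 groups.

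Of the relay downstream of the helicases, IRF3 fell in MiaPaCa2 while MAVS and TBK1 were not called. MAVS, on chromosome 20 at 3827446 to 3856770, had 28.1, 29.3 and 29.5 FPKM in knockout libraries, against 26.9, 27.0 and 26.6 FPKM in wild-type libraries. All knockout values were above all wild-type values, by a log2 change of 0.11 (SE 0.04, adjusted p = 0.0594) that missed the threshold. With quantile normalization it passed at 0.15 (adjusted p = 0.0115), without a filter at 0.11 (adjusted p = 0.0381), and without Panc1 knockout replicate 3 at 0.11 (adjusted p = 0.0464). TBK1 had 7.85, 8.75 and 6.68 FPKM in knockout libraries, against 7.91, 6.67 and 8.60 FPKM in wild-type libraries. The values were intermingled, and the log2 change of 0.00 had a 95% interval from -0.24 to 0.25 (adjusted p = 0.988), slightly below 0 with median-ratio scaling and quantile normalization. IRF3 had 32.9, 31.7 and 33.8 FPKM in knockout libraries, against 40.6, 41.8 and 40.2 FPKM in wild-type libraries. Its groups were clearly apart (log2 change -0.31, SE 0.04, adjusted p = 9.7e-05). IRF3 lies on chromosome 19, 50162826 to 50169132, and its exons overlap those of BCL2L12 on the other strand, which changed by -0.23 (adjusted p = 0.0221) to 26.3 FPKM in knockout libraries, against 31.04 FPKM in wild-type libraries of MiaPaCa2. The reads of the 2 genes cannot be told apart.

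**Figure D2:**
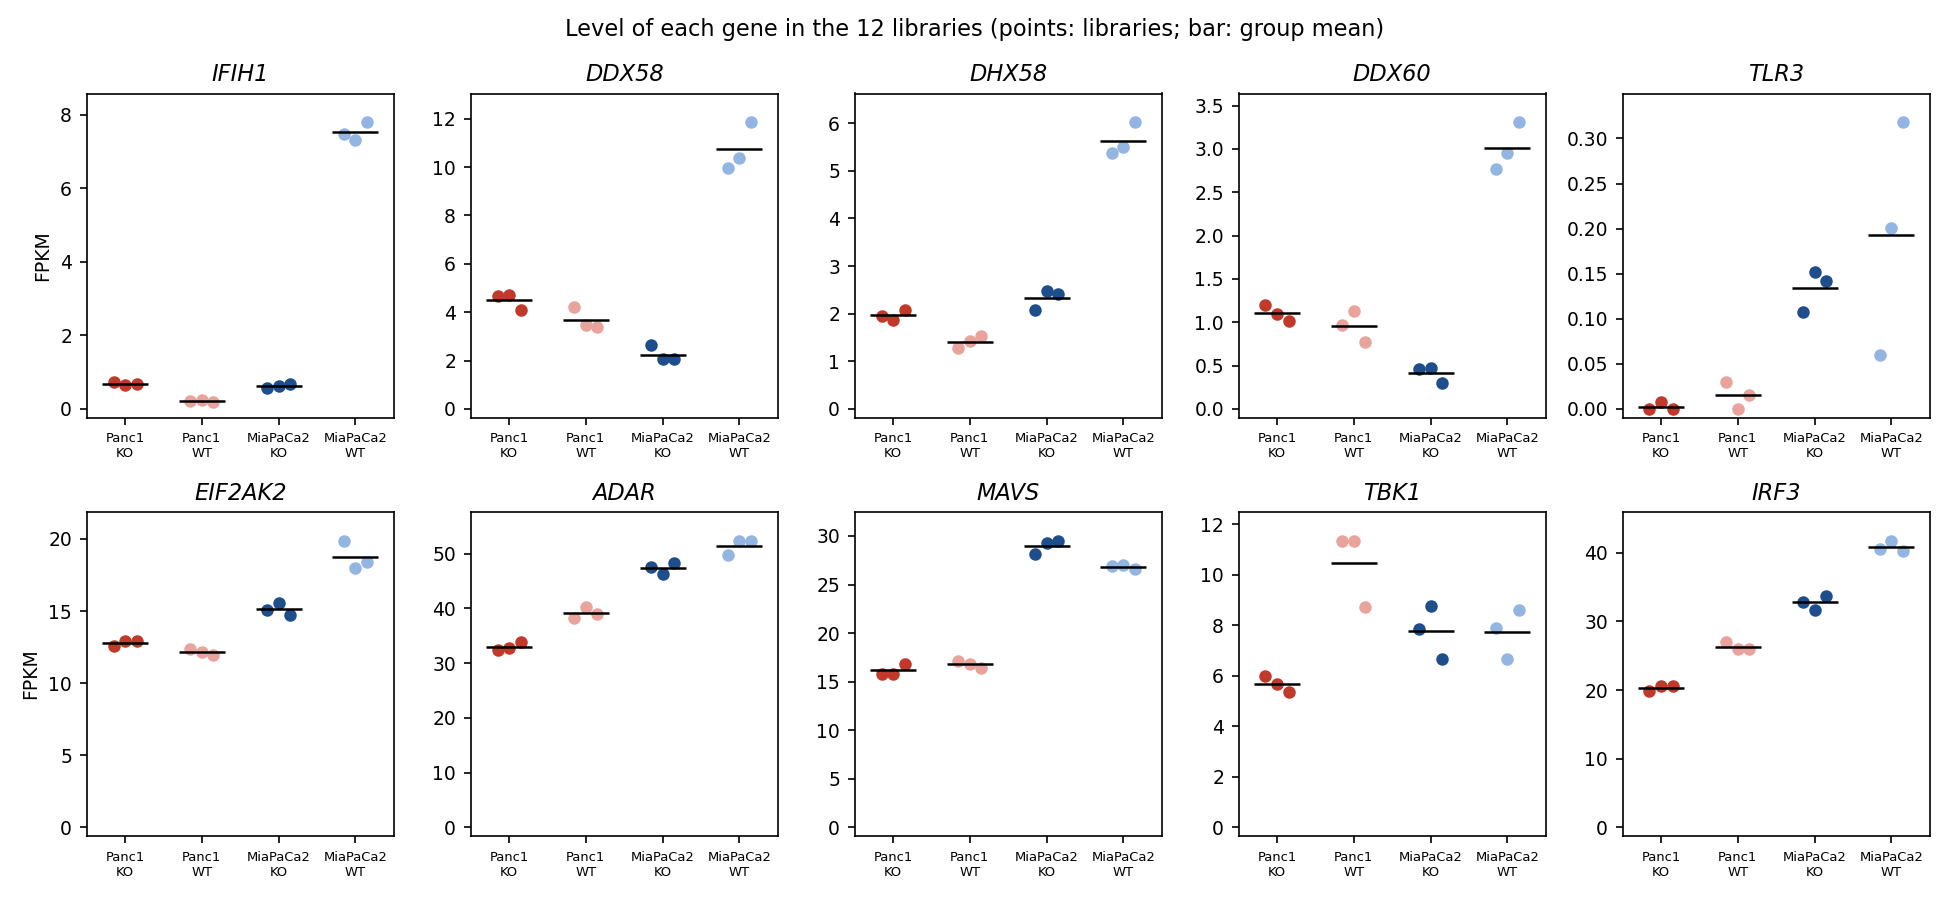
FPKM of each of the 10 genes in the 12 libraries (points, 3 per group) with group means (bars), on axes of different length for each gene, knockout left of wild-type in each line. The 4 helicases on the upper row stand highest in MiaPaCa2 wild-type libraries and are lower in the other 3 groups. IFIH1 lies between 7.32 and 7.80 FPKM in MiaPaCa2 wild-type libraries.

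In Panc1 the helicases started from a lower level than in MiaPaCa2 and did not fall. Of the 9 tested genes 3 were called higher and 3 lower in knockout libraries, where 21.8% of all tested genes were called higher and 41.6% lower. The median change over all tested genes was -0.10 in the deposited values, and it was -0.16 on the TPM scale, 0.00 with median-ratio scaling and -0.02 with quantile normalization, so small changes in Panc1 have to be read against this shift. Of all called genes, 65.6% were lower in the deposited values, 73.7% on the TPM scale, 47.9% with median-ratio scaling and 52% with quantile normalization.

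IFIH1 rose in Panc1, with 0.734, 0.638 and 0.681 FPKM in knockout libraries, against 0.219, 0.248 and 0.181 FPKM in wild-type libraries. No values overlapped, and the knockout mean was 3.17 times the wild-type mean. The log2 change was 0.47 (SE 0.05, adjusted p = 9.1e-06). Both groups were low, with 4.88% of tested genes below the knockout mean and 2.17% below the wild-type mean. DHX58 rose as well, with 1.95, 1.87 and 2.07 FPKM in knockout libraries, against 1.28, 1.44 and 1.52 FPKM in wild-type libraries (log2 change 0.30, SE 0.07, adjusted p = 0.00185).

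DDX58 had 4.67, 4.73 and 4.09 FPKM in Panc1 knockout libraries, against 4.201, 3.48 and 3.38 FPKM in wild-type libraries. Knockout replicate 3 lay below wild-type replicate 1, so the groups overlapped, and the call was close to the threshold (log2 change 0.23, SE 0.09, adjusted p = 0.0444). It was lost with a pseudocount of 0.1 (adjusted p = 0.0525), without a filter (adjusted p = 0.0843) and on the TPM scale (adjusted p = 0.127). It was lost also without Panc1 wild-type replicate 2 (adjusted p = 0.129) or 3 (adjusted p = 0.148), knockout replicate 1 (adjusted p = 0.115) or 2 (adjusted p = 0.130) and MiaPaCa2 wild-type replicate 2 (adjusted p = 0.0542). DDX60 had 1.203, 1.098 and 1.02 FPKM in knockout libraries, against 0.968, 1.13 and 0.77 FPKM in wild-type libraries, and these overlapped (log2 change 0.11, adjusted p = 0.256).

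EIF2AK2 stood at 12.6, 12.9 and 12.9 FPKM in Panc1 knockout libraries, against 12.4, 12.2 and 11.9 FPKM in wild-type libraries. The groups did not overlap, but the difference was small (log2 change 0.07, SE 0.05, adjusted p = 0.192), and it passed with median-ratio scaling at 0.20 (adjusted p = 0.00243) and quantile normalization at 0.21 (adjusted p = 0.00223). ADAR fell, with 32.5, 32.7 and 33.9 FPKM in knockout libraries, against 38.3, 40.2 and 39.0 FPKM in wild-type libraries (log2 change -0.24, SE 0.04, adjusted p = 1.5e-04). Its 231 tested neighbours within 10 Mb on chromosome 1 had a median of 0.00, and 56 of them were as low as ADAR or lower. ADAR lies at 154554171 to 154600489.

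In the relay, TBK1 and IRF3 fell in Panc1 and MAVS was not called. TBK1 had 6.004, 5.68 and 5.38 FPKM in knockout libraries, against 11.3, 11.3 and 8.70 FPKM in wild-type libraries. The knockout mean was 54.3% of the wild-type mean and the groups did not overlap, although wild-type replicate 3 lay below the other wild-type values. The log2 change was -0.77 (SE 0.11, adjusted p = 7.4e-05), against a median of -0.11 over the 110 tested neighbours within 10 Mb on chromosome 12, where TBK1 lies at 64845870 to 64895894. Of these 110, 4 were as low as TBK1 or lower, among them USP15 at 62654119 to 62811211 (log2 change -0.88). The exons of TBK1 overlap those of annotated genes without a symbol on both strands. How shared reads were counted is not known. IRF3 had 19.9, 20.6 and 20.6 FPKM in knockout libraries, against 27.1, 25.9 and 26.02 FPKM in wild-type libraries (log2 change -0.36, SE 0.04, adjusted p = 6.5e-06). BCL2L12, which shares exon sequence with it on the other strand, changed by -0.30 (adjusted p = 0.00262) to 12.9 FPKM in knockout libraries, against 16.1 FPKM in wild-type libraries of Panc1. MAVS had 15.8, 15.8 and 16.9 FPKM in knockout libraries, against 17.1, 16.9 and 16.4 FPKM in wild-type libraries, and the values overlapped. Its log2 change of -0.05 (adjusted p = 0.276) had the other sign with median-ratio scaling (0.08) and quantile normalization (0.07), and passed on the TPM scale at -0.12 (adjusted p = 0.0198). Summed over MAVS, TBK1 and IRF3, the relay stood at 42.2 ± 0.598 FPKM in knockout and 53.6 ± 2.25 FPKM in wild-type libraries of Panc1, and at 69.5 ± 0.600 FPKM in knockout and 75.4 ± 0.062 FPKM in wild-type libraries of MiaPaCa2 (SD, n = 3 each).

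**Figure D3:**
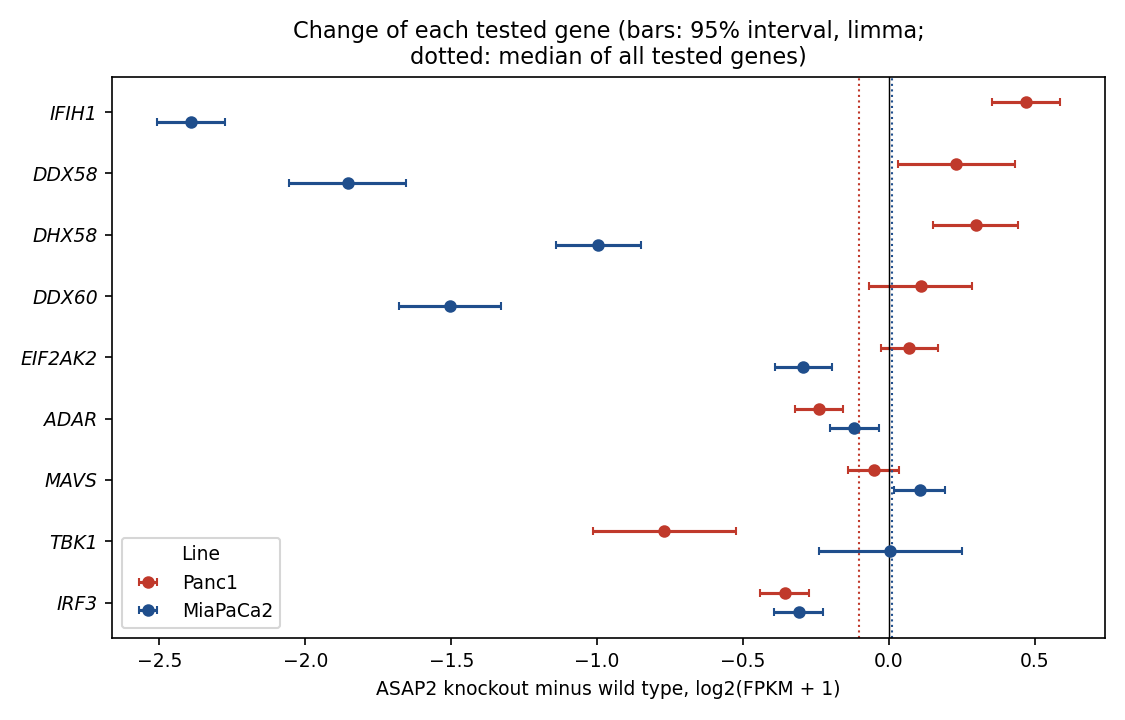
Log2 change of each tested gene on the log2(FPKM + 1) scale with its 95% interval, knockout minus wild-type in Panc1 and in MiaPaCa2. The MiaPaCa2 changes of IFIH1, DDX58, DDX60 and DHX58 lie at -2.39, -1.86, -1.50 and -0.996, while none of these genes is below 0 in Panc1; IRF3 is lower in both lines and TBK1 in Panc1.

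The knockout changes of the lines were then compared with each other, as the Panc1 change minus the MiaPaCa2 change. Of the 9 genes 5 had a larger value in Panc1 and 2 a smaller one, where 20.0% of all tested genes were called in the first direction and 37.4% in the second. All 4 helicases and EIF2AK2 made up the first group. The difference was 2.86 for IFIH1 (SE 0.08, adjusted p = 2.8e-10), 2.09 for DDX58, 1.61 for DDX60 and 1.29 for DHX58, and 0.36 for EIF2AK2 (adjusted p = 4.6e-04). The 94 tested neighbours of EIF2AK2 within 10 Mb had a median difference of 0.20, and 55 of them were as low as EIF2AK2 or lower. The part of this neighbourhood was not tested. IFIH1 was tested only because MiaPaCa2 wild-type libraries lifted it over the filter, so its difference and its place in this count are a description. TBK1 differed the other way, by -0.77 (SE 0.16, adjusted p = 0.00134), and MAVS by -0.16 (adjusted p = 0.0308). The median difference over all tested genes was -0.12, and that of the 65 tested neighbours of MAVS within 10 Mb was -0.15. MAVS lay near both, so its difference is not particular to this gene.

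The difference for MAVS was lost with median-ratio scaling (-0.02, adjusted p = 0.797), with quantile normalization (-0.09, adjusted p = 0.205) and without any 1 of 6 libraries. These were Panc1 wild-type replicate 1 (adjusted p = 0.0728) or 2 (adjusted p = 0.0596), Panc1 knockout replicate 1 (adjusted p = 0.0556) or 2 (adjusted p = 0.0737), and replicate 3 of MiaPaCa2 wild-type (adjusted p = 0.0630) or knockout (adjusted p = 0.0629). For ADAR the difference was -0.12 (adjusted p = 0.0707), 0.02 with median-ratio scaling. It passed on the TPM scale at -0.19 (adjusted p = 0.00869) and with quantile normalization at -0.14 (adjusted p = 0.0324). It passed also without a filter at -0.12 (adjusted p = 0.0494) and without MiaPaCa2 knockout replicate 2 at -0.14 (adjusted p = 0.0456). For IRF3 no difference between the lines was found, at -0.05 with a 95% interval from -0.17 to 0.07 (adjusted p = 0.479), and 0.09 with median-ratio scaling.

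Before any knockout the lines already differed in this pathway. Wild-type Panc1 was lower than wild-type MiaPaCa2 for 8 of the 9 tested genes and higher for 1, where 40.9% and 41.8% of all tested genes were called lower and higher. IFIH1 had the largest gap, with a Panc1 mean of 0.216 ± 0.0336 FPKM, 2.87% of the MiaPaCa2 mean of 7.53 ± 0.243 FPKM (SD, n = 3 each; log2 change -2.81), the level through which it passed the filter. DHX58 differed by -1.46, DDX58 by -1.32 and DDX60 by -1.04. DDX58 lay below all 83 of its tested neighbours within 10 Mb, whose median was 0.74 on the log2 scale. EIF2AK2 differed by -0.59, ADAR by -0.39, MAVS by -0.65 and IRF3 by -0.61. TBK1 was the gene that was higher in Panc1, at 10.5 ± 1.52 FPKM against 7.73 ± 0.975 FPKM in MiaPaCa2 (log2 change 0.39, adjusted p = 0.00597). Its 110 tested neighbours within 10 Mb were mostly higher in Panc1 as well. Their median was 0.46, and 51 of them were as low as TBK1 or lower. The part of this neighbourhood in the difference of TBK1 was not tested.

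This comparison shares its wild-type libraries with those above, so its values are set beside the knockout levels only as a description. In knockout libraries IFIH1 averaged 0.684 FPKM in Panc1 and 0.625 FPKM in MiaPaCa2, and the 2 groups overlapped. DDX58 averaged 4.50 FPKM in Panc1 knockout and 2.25 FPKM in MiaPaCa2 knockout libraries without overlap. DDX60 averaged 1.11 FPKM in Panc1 knockout and 0.413 FPKM in MiaPaCa2 knockout libraries, also without overlap. DHX58 averaged 1.96 FPKM in Panc1 knockout and 2.33 FPKM in MiaPaCa2 knockout libraries, again without overlap.

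The order of the levels, which FPKM allows since it is per length, was alike at the top. ADAR, IRF3, MAVS and EIF2AK2 followed each other in all 4 groups, and TLR3 was last in all 4. In the 2 Panc1 groups the rest ran TBK1, DDX58, DHX58, DDX60 and IFIH1, with no overlap between neighbours in the order. In MiaPaCa2 wild-type libraries DDX58 came before TBK1, and TBK1 and IFIH1 overlapped in 6th and 7th place. In MiaPaCa2 knockout libraries TBK1 came 5th, DHX58 and DDX58 overlapped after it, and IFIH1 and DDX60 came last before TLR3. Of all tested genes 48.7% had a lower mean than IFIH1 in MiaPaCa2 wild-type libraries, but 7.87% in MiaPaCa2 knockout libraries.

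The genes around each member were used to see whether a change was shared along the chromosome, with 12623 tested genes (94.6%) placed in GRCh37. The helicases in MiaPaCa2 stood apart from their surroundings. IFIH1 lay 2.31 below the median of its 43 tested neighbours within 10 Mb on the log2 scale, a median that was itself -0.09, and none of the 43 was as low. IFIH1 passed the filter only through MiaPaCa2 wild-type libraries, where it is high, so its place among its neighbours is a description. DDX58 was likewise below all of its 83 neighbours, and DDX60 below all of its 29. Among those 29 is the adjacent paralog DDX60L, which was low as well. It averaged 0.895 FPKM in knockout and 3.63 FPKM in wild-type libraries of MiaPaCa2 (log2 change -1.29, adjusted p = 9.5e-07, the 37th lowest of all genes), so DDX60 does not stand apart from this neighbour, with which it may share reads. Of the 252 neighbours of DHX58, 4 were as low or lower. MAVS in MiaPaCa2 sat within its surroundings, where 65 genes had a median of 0.10. IRF3 lay below a median of -0.16 over 381 neighbours in Panc1 and of 0.00 in MiaPaCa2. Of these 381, 93 were as low as IRF3 or lower in Panc1 and 22 in MiaPaCa2.

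**Figure D4:**
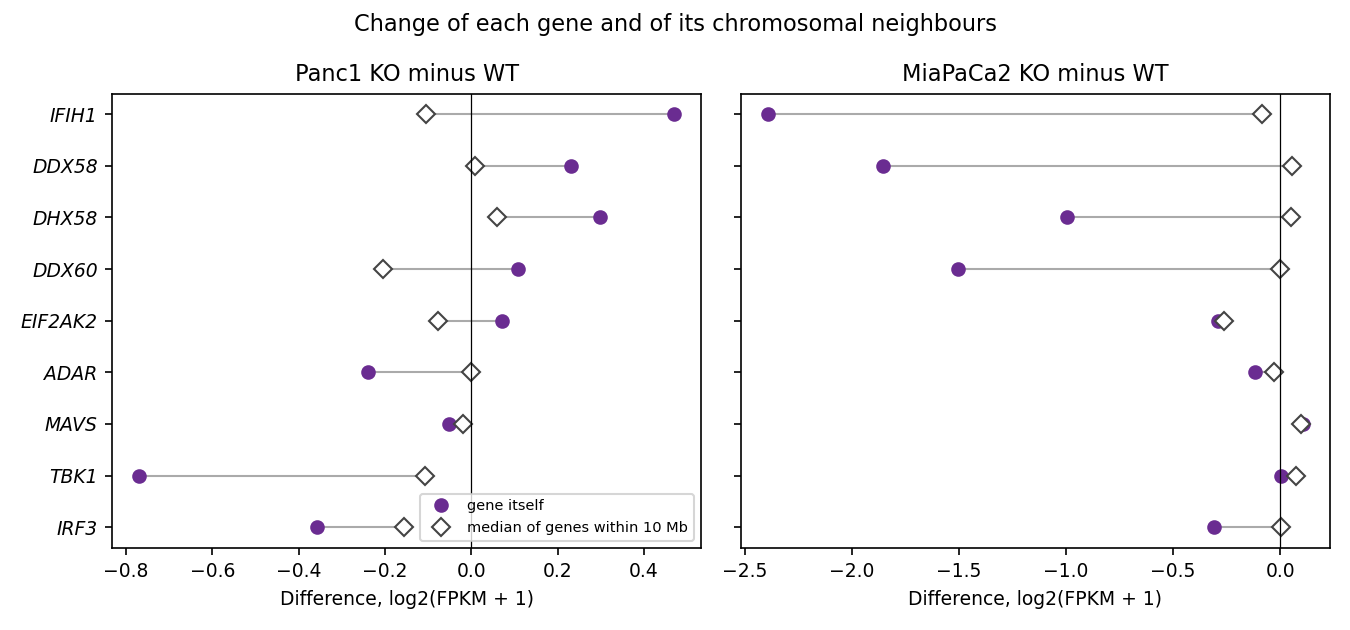
Log2 change on the log2(FPKM + 1) scale, knockout minus wild-type, of each of the 9 tested genes (filled circles) and the median change of the tested genes within 10 Mb of it (open diamonds), in Panc1 and in MiaPaCa2; the horizontal axes differ between the panels. In MiaPaCa2 the 4 helicase genes lie far to the left of their neighbours' medians, while EIF2AK2 lies close to its neighbours' median of -0.26.

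The genes whose pattern over the 12 libraries was closest to that of each helicase were found by the root mean square difference on log2(FPKM + 1) after each gene's own mean was taken off. For IFIH1 these were the chemokine gene CCL5 at 0.173, CLDN11, a tight junction claudin, at 0.210 and OAS2, which makes an oligoadenylate messenger on binding double-stranded RNA, at 0.236. CCL5 averaged 0.895 FPKM in knockout and 0.203 FPKM in wild-type libraries of Panc1, and 1.17 FPKM in knockout and 8.85 FPKM in wild-type libraries of MiaPaCa2. Like IFIH1 it was higher in knockout in 1 line and lower in the other. CCL5 was chosen by its pattern, so this likeness is not a separate result. For DDX58 the closest were DDX60 at 0.163, DDX60L at 0.266 and BST2, a membrane protein that tethers virions, at 0.298. For DDX60 they were DDX60L at 0.161, DDX58 at 0.163 and ISG20, an interferon-induced exonuclease, at 0.250. For DHX58 they were FAM155B at 0.122, the long noncoding RNA BLACAT1 at 0.165 and the LIM-domain gene PDLIM7 at 0.173. The other 5 tested genes differed by less than 1 between their highest and lowest group and were not compared this way. Like IFIH1, the genes CLDN11, OAS2, BST2, FAM155B and BLACAT1 averaged 1 FPKM or more only in MiaPaCa2 wild-type libraries. They passed the filter through these libraries, so their likeness to the helicases is a description. All the closest genes were chosen by their pattern, as CCL5 was.

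Other genes of the pathway were counted by lists, and each count is to be read against the share of all tested genes, 17.8% higher and 16.3% lower in MiaPaCa2 and 21.8% higher and 41.6% lower in Panc1. Among 32 other RNA sensors and cofactors, 27 were tested. In MiaPaCa2 1 was called higher (3.7%) and 11 lower (40.7%) in knockout libraries (median -0.10, all genes 0.01), with 0 higher with median-ratio scaling and 3 with quantile normalization. The largest changes were those of the 3 oligoadenylate synthetases. OAS2 averaged 0.535 FPKM in knockout and 6.55 FPKM in wild-type libraries (log2 change -2.29, adjusted p = 1.1e-08), OAS1 0.173 FPKM in knockout and 3.06 FPKM in wild-type libraries (-1.79), and OAS3 0.746 FPKM in knockout and 3.39 FPKM in wild-type libraries (-1.33). OAS1 and OAS2 reached a mean of 1 FPKM only in MiaPaCa2 wild-type libraries and passed the filter through them. Their changes in MiaPaCa2 and their place among the 11 lower genes are therefore a description. In Panc1 3 of the 27 were called higher (11.1%) and 13 lower (48.1%), the lower share near the 41.6% of all genes (median -0.11, all genes -0.10). The largest changes were those of the RNA helicases DDX1 (-1.06), on chromosome 2 at 15731302 to 15774470, DHX29 (-0.88) and DDX3X (-0.69). DDX1 lies within 10 Mb of the knocked-out gene ASAP2, which is at 9346894 to 9545812 on the same chromosome. The part of this position in the change of DDX1 was not tested. With median-ratio scaling 8 of this list were higher and 10 lower in Panc1, and with quantile normalization 5 and 13.

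The relay from MAVS and TRIF, with 27 of 29 genes tested, had 9 higher (33.3%, against 17.8% of all genes) and 2 lower (7.41%, against 16.3%) in MiaPaCa2 (median -0.02). STING (gene TMEM173), the adaptor of cytoplasmic DNA sensing, fell to 3.15 FPKM in knockout libraries, against 14.2 FPKM in wild-type libraries (log2 change -1.88, adjusted p = 1.6e-07). TBKBP1, an adaptor that binds TBK1, rose by 0.45, and TICAM1, which encodes TRIF, by 0.37. In Panc1 7 were higher (25.9%) and 12 lower (44.4%), both shares near those of all genes (median -0.14). With median-ratio scaling and with quantile normalization 10 were higher and 7 lower, and on the TPM scale 4 and 15. TBKBP1 rose by 0.83, while the autophagy receptor gene TAX1BP1 fell by 0.77 and TMEM173 by 0.60 on the log2 scale.

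Of 30 genes listed here as inhibitors of the relay 29 were tested. Not all of them act only as inhibitors, so their changes give no direction for the relay. In MiaPaCa2 2 were higher (6.9%, against 17.8% of all genes) and 6 lower (20.7%, near the 16.3% of all genes; median -0.02). PCBP1, an RNA-binding protein that promotes loss of MAVS and whose gene lies on chromosome 2 at 70314609 to 70316335, fell by 0.79. OPTN, a ubiquitin-binding adaptor, rose by 0.73 and CYLD, a deubiquitinase that acts on RIG-I, by 0.57. In Panc1 10 were higher (34.5%, against 21.8% of all genes) and 11 lower (37.9%, near the 41.6% of all genes), with a median of 0.00, and on the TPM scale 6 and 13. The largest changes there were those of the deubiquitinase genes USP15 (-0.88) and OTUB2 (-0.70) and of ATG12 (-0.60), a ubiquitin-like protein of autophagy. Of the 17 genes of the PKR axis, all tested, 4 were higher and 4 lower in MiaPaCa2 (23.5% each, median -0.01), and 4 were higher (23.5%) and 8 lower (47.1%) in Panc1 (median -0.13), shares near those of all genes in both lines. ATF4 and DDIT3, transcription factors of the response to eIF2 phosphorylation, rose in both lines, ATF4 by 1.13 in Panc1 and 0.47 in MiaPaCa2, and DDIT3 by 0.76 in Panc1 and 0.82 in MiaPaCa2. NCK1, an adaptor that opposes eIF2 phosphorylation, fell by 0.45 in Panc1, and EIF2B2, a subunit of the exchange factor for eIF2, fell by 0.43 in MiaPaCa2.

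Genes downstream of the pathway, interferons and interferon-induced genes, were 24, of which 22 were in the files and 14 were tested. In MiaPaCa2 1 was higher (7.14%, against 17.8% of all genes) and 11 lower (78.6%, against 16.3%), with a median of -1.55. OASL averaged 8.79 FPKM in knockout and 79.1 FPKM in wild-type libraries (log2 change -3.04), ISG15 22.8 FPKM in knockout and 184 FPKM in wild-type libraries (-2.98), and IFIT3 5.87 FPKM in knockout and 47.7 FPKM in wild-type libraries (-2.84). Genes that pass the filter only because they are high in MiaPaCa2 wild-type libraries had to differ there, which holds for 1 of the 14, IFI44, so these counts are a description. In Panc1 3 were higher (21.4%, near the 21.8% of all genes) and 4 lower (28.6%, against 41.6%), with a median of -0.03, among them USP18, which restrains the interferon receptor, higher by 0.53, and the feedback inhibitor SOCS1, lower at -0.72. Among the interferon genes the highest group means were 0.431 FPKM for IFNL1, in MiaPaCa2 wild-type libraries, and 0.429 FPKM for IFNE, in Panc1 knockout libraries, and neither was tested.

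**Figure D5:**
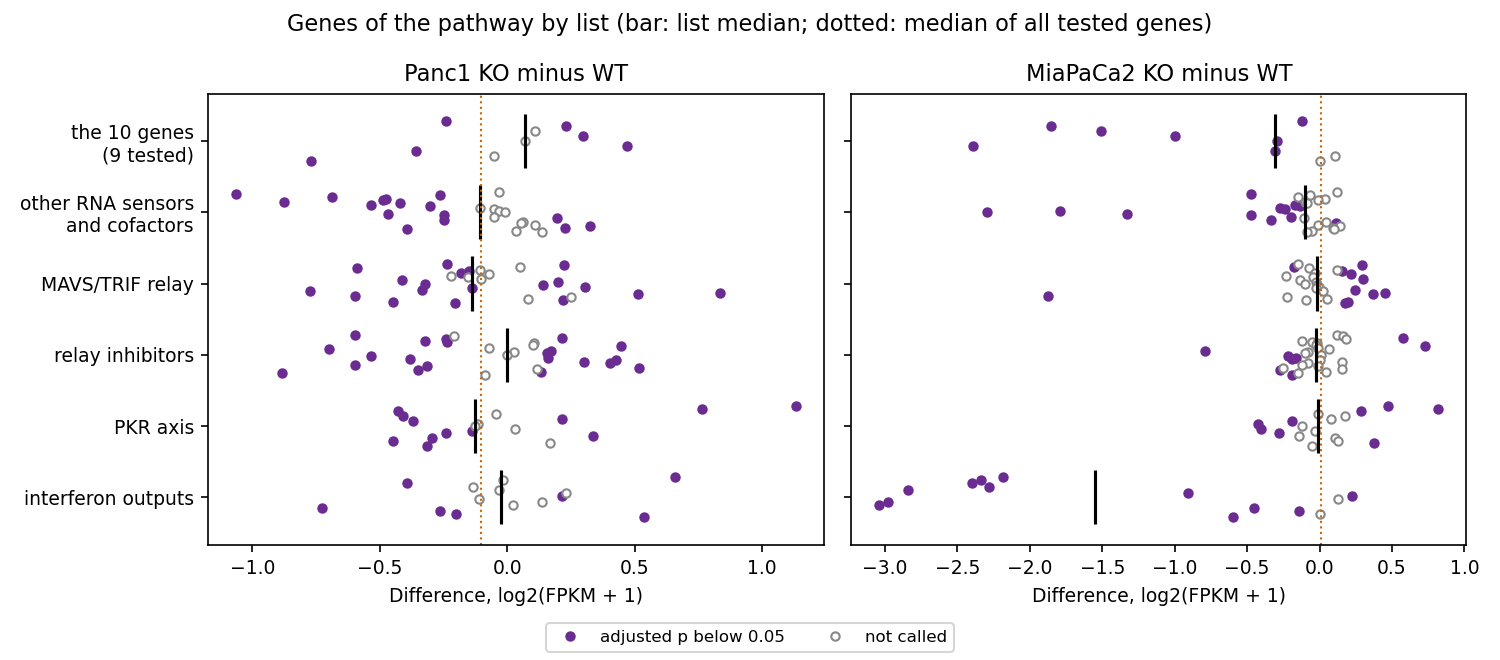
Log2 change on the log2(FPKM + 1) scale, knockout minus wild-type, of each tested gene of the 10 and of 5 lists of the pathway in Panc1 and in MiaPaCa2, with list medians (bars) and the median of all tested genes (dotted line); filled points had an adjusted p below 0.05. The interferon list has a median of -1.55 in MiaPaCa2 and -0.03 in Panc1, and the other 4 lists have medians between -0.14 and 0.00.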

How the data were processed

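RNA-seq of 12 libraries was used, 3 in each of 4 groups. The authors deposited FPKM, 1 value per gene symbol and library. Total RNA came from an ISOGEN II extraction and was sequenced on a BGISEQ-500, per the labels' protocols. Trimmed and quality-filtered reads were aligned to hg19 by TopHat2 2.0.14, and the authors calculated FPKM with STAR 2.5.2a, per the design text and the submitters' processing notes. The sources used here do not give library preparation, use of strand or the handling of multi-mapping reads.

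Genes not listed in a library were set to 0. limma 3.58.1 in R 4.3.3 was run on log2(FPKM + 1) with 1 mean per group over all 12 libraries (8 residual degrees of freedom), a mean-variance trend and two-sided tests, and p-values were adjusted by Benjamini-Hochberg over 13340 genes. These averaged 1 FPKM or more across the 6 libraries of Panc1, of MiaPaCa2 or of both. The test was checked on simulated data. No count test was possible, since whole reads could not be recovered and depth is unknown. That only FPKM were deposited limits the precision that can be stated to the spread between libraries. Positions came from GENCODE 44 mapped to GRCh37, and promoter windows from RefSeq. A comparison of the proteins was not made here.

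The 10 genes, the lists, the tests and the rule for named genes were chosen with earlier results of these data known. The rule takes the 10 genes, ASAP2, the 3 called genes with the largest change per list and line (groups apart, higher group averaging 1 FPKM or more), and the 3 genes closest in pattern to each of the 10 whose group means spanned at least 1 on the log2 scale. Genes overlapping the 10, DDX60L as a neighbour and the interferon genes were named after their values were seen. A gene that the rule names is not reported here. The alternatives were a pseudocount of 0.1, no filter or one of 5 FPKM, scaling to equal sums (TPM scale), by the median ratio or by quantiles, no trend, the replicate number as a block, a fit of only the compared groups, and each library left out in turn. With a library left out, the remaining pair is assumed to vary like the other groups.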

Additional observations from a re-analysis of the deposited data

Results flagged for a closer look

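The change with knockout differed between the lines for 7 of the 9 tested genes, by limma's test of the difference itself, given as the Panc1 change minus the MiaPaCa2 change. Of all 13340 tested genes 20.0% had a larger value in Panc1 and 37.4% a smaller one by the same test. The difference was 2.86 for IFIH1, 2.09 for DDX58, 1.61 for DDX60 and 1.29 for DHX58, the 4 helicases, of which IFIH1 was tested only through its level in MiaPaCa2 wild-type libraries. It was 0.36 for EIF2AK2, -0.16 for MAVS and -0.77 for TBK1. The median difference over all tested genes was -0.12, near that of MAVS. The tested neighbours of EIF2AK2 within 10 Mb had a median difference of 0.20. For MAVS the difference did not pass under 8 of the alternatives.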

How the results depend on the processing

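Of the 36 tested results on single genes of the 10, in 4 comparisons, 27 kept their direction and their side of the threshold under every alternative run, among them all those of IFIH1, DHX58 and DDX60. With a filter of 5 FPKM, IFIH1, DHX58 and DDX60 were not tested, and the counts were 1 higher in Panc1, 4 lower in MiaPaCa2, 2 with a larger value in Panc1 for the difference between lines, and 5 lower for wild-type Panc1 against wild-type MiaPaCa2. In MiaPaCa2 1 gene was higher without a filter and 1 with quantile normalization, and 0 to 1 with a library left out. For the difference between lines 1 gene had a smaller value in Panc1 with median-ratio scaling, and 1 to 3 had with a library left out. The sign turned for MAVS in Panc1 (0.078 with median-ratio scaling and 0.065 with quantile normalization), for ADAR (0.021) and IRF3 (0.092) in the difference between lines with median-ratio scaling, and for TBK1 in MiaPaCa2 (-0.0026 with median-ratio scaling, -0.017 with quantile normalization and -0.085 to 0.096 with a library left out), none of them past the threshold there; the cause was not tested. Among the list counts in MiaPaCa2, the 2 lower relay genes became 4 without knockout replicate 2, the 2 higher inhibitors became 4 without knockout replicate 3, the 1 higher interferon-related gene became 2 without wild-type replicate 1, and the 1 higher cofactor became 3 with quantile normalization, 0 with median-ratio scaling or without the trend, 2 without Panc1 knockout replicate 3 and 0 without any 1 of the MiaPaCa2 wild-type libraries or MiaPaCa2 knockout replicate 3. TLR3 without a filter differed between the wild-type lines by -0.23 (adjusted p = 0.00737), and by -1.25 with a pseudocount of 0.1. The replicate numbers did not pair the libraries: same-numbered deviations correlated at 0.017, 0.034 and 0.078 in Panc1 and at -0.127, -0.165 and -0.002 in MiaPaCa2. With the replicate block 8444 genes were called in Panc1 (8466 without), 4467 in MiaPaCa2 (4545 without), 7642 in the difference between lines (7661 without) and 11041 between the wild-type lines (11034 without), and the block changed no call of the 10 genes. With depth unknown, the levels of TLR3 and of IFIH1 in Panc1 carry a counting error that cannot be stated.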
